A study of Rattus norvegicus with 10 samples.

Results

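Transcripts of 7 subunits of the voltage-gated sodium channel were followed in the hippocampus of rats 3 months after traumatic brain injury (TBI). The members were 4 pore-forming alpha subunits, Scn1a, Scn2a, Scn3a and Scn8a, and 3 auxiliary beta subunits, Scn2b, Scn3b and Scn4b. They were chosen by gene symbol. Each of the 7 had a single row among the 32041 RNA records of the count table, so no choice between rows was needed. All 7 were among the 22431 rows that passed the filter on low counts. Both groups were adult male Sprague-Dawley rats. The 5 TBI rats had received lateral fluid percussion, a pressure pulse delivered to the intact dura through a craniectomy over the left parietal lobe. The pulse averaged 3.32 atm over the injured rats of the study, from whose survivors these 5 were selected. The 5 sham rats had undergone the same anaesthesia and surgery without the pulse. RNA came from the left hippocampus, from a piece holding CA3 and the dentate gyrus. By the methods of the study the injured rats were not monitored by EEG, so it is not known which of them had seizures. The methods add that handling set off no seizures and that, by earlier data, only a small share of rats have epilepsy by then.

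Voltage-gated sodium channels open upon depolarisation and carry the rising phase of the action potential. Each channel has an alpha subunit, which forms the pore and the voltage sensors, and beta subunits, single-pass membrane proteins that alter gating and bring the channel to the cell surface. The channels are densest at the axon initial segment, where ankyrin-G, the product of Ank3, holds them, and many antiseizure drugs act on them.

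The libraries held 23425817 to 31671838 counts. Ribosomal RNA took 58.5% and 59.0% of the counts of sham replicates 5 and 4, and from 12.5% to 26.2% in the other 8 rats, so counts of each member were lowest in those sham rats. Levels are therefore given as CPM, counts per 1000000 of the library size adjusted by TMM, a scaling that assumes that most transcripts do not differ. The lowest count of any member was 333, for Scn3a in sham replicate 4, with an exact Poisson 95% interval of 298 to 371 that covers counting error only. The pieces of tissue were not alike. The summed level of granule cell markers was 68.6 CPM in sham replicate 1 and 86.6 CPM in TBI replicate 5, against 127 to 212 CPM in the other 8 rats. General neuronal markers (11 of 11 tested, none at 0 in any library) summed to 3835 to 4727 CPM in sham and 3479 to 4222 CPM in TBI rats. In such bulk tissue, fewer cells of a type and less RNA per cell cannot be told apart.

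Of the 7 members, 6 had a lower mean in TBI than in sham rats, and 4 of them, Scn1a, Scn2a, Scn3a and Scn2b, had an unadjusted p under 0.05 in edgeR's quasi-likelihood test. No member was called at a Benjamini-Hochberg adjusted p of 0.05, the smallest being 0.487 for Scn1a, and 0% of all rows were called. Most alternatives also called 0 rows. With total count scaling, which shifts all rows, 92 were called. Without sham replicate 3 and TBI replicate 3, a pair chosen after seeing the data, 320 were called. In summed astrocyte and microglia markers these were the highest sham rat and the lowest TBI rat. Leaving them out therefore widens the difference between the groups in such markers. The study itself listed up- and downregulated genes in this model, at an unadjusted threshold and with fewer control rats. The 0% is the outcome of this test and threshold, and not a statement that the injury changed no transcript. Of all rows tested, 3.00% were lower and 4.89% higher in TBI at an unadjusted p under 0.05. No member was higher at that threshold. Among the 5944 rows at least as abundant as the least abundant member, the share of lower rows was 2.96%. The median log2 change, TBI over sham, was -0.18 over the members and -0.01 over all rows. The groups overlapped for each of the 7 members, while 0.923% of all rows had groups that did not overlap. The number of members with an unadjusted p under 0.05 was 1 with the ribosomal RNA share as a covariate, 2 without sham replicate 1 or TBI replicate 4, 1 without sham replicate 2, sham replicate 4 or TBI replicate 5, and 0 without both sham replicate 1 and TBI replicate 5. That pair was chosen after seeing the data. Sham replicate 1 was the highest and TBI replicate 5 the lowest of all rats in Scn1a and Scn2b, so leaving both out lessens those differences. The number was also 0 with scaling by total counts. This scaling moved the median of all rows to 0.50 and of the members to 0.34. Each member but Scn3b then turned from lower to higher in TBI. Relative to the median of all rows in the same fit, the 6 members lower in TBI lay below it under both scalings, and Scn3b lay at 0.024 with TMM and -0.0062 with total counts.

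**Figure D1:**
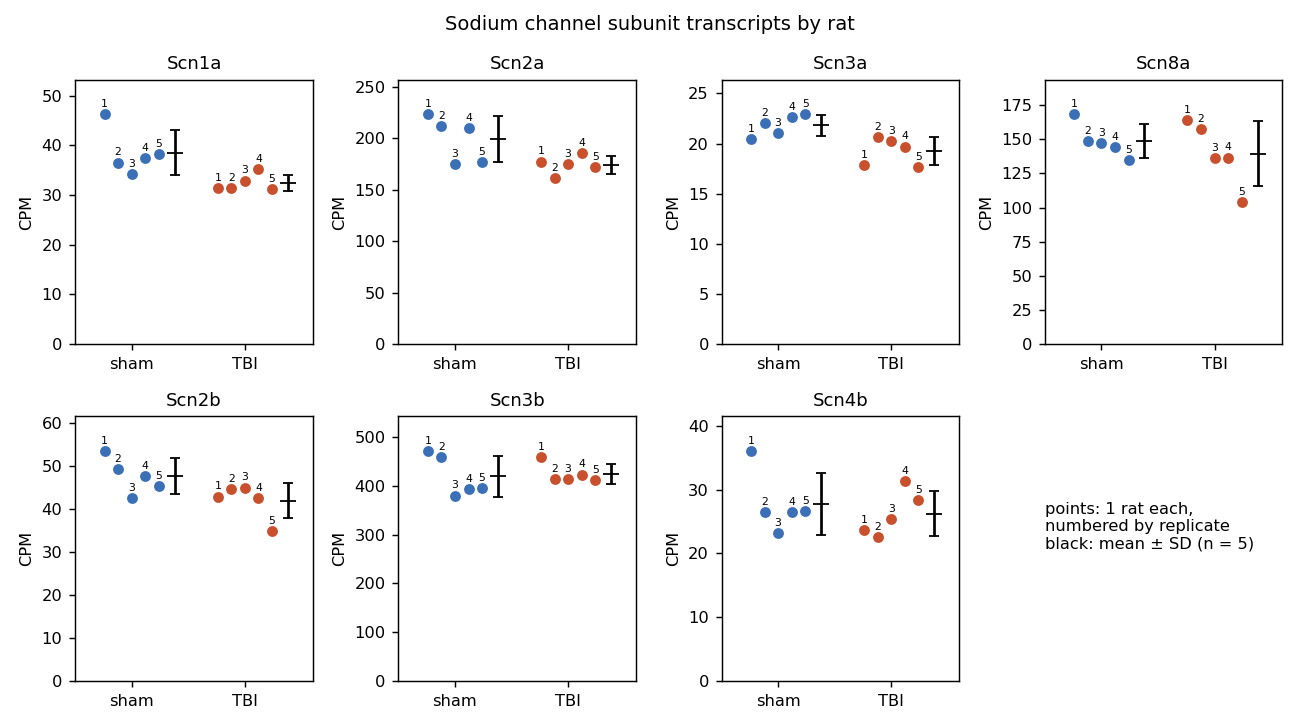
Level of each of the 7 subunit transcripts in CPM (vertical axis, from 0) in the 5 sham (blue) and 5 TBI (orange) rats, numbered by replicate, with the mean and SD of each group in black. In Scn1a and Scn3a 4 of the 5 TBI rats lie below each sham rat, while in Scn3b and Scn4b the groups lie across each other.

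Scn1a encodes Nav1.1, the alpha subunit best known from fast-spiking parvalbumin interneurons, whose loss of function causes Dravet syndrome. The sham rats had 46.3, 36.5, 34.2, 37.5 and 38.3 CPM of Scn1a. The TBI rats had 31.5, 31.4, 32.9, 35.2 and 31.1 CPM. Only TBI replicate 4 was above the lowest sham rat, sham replicate 3, and sham replicate 1 stood highest. The means were 38.6 CPM ± 4.57 (SD, n = 5) in sham and 32.4 CPM ± 1.68 (SD, n = 5) in TBI rats. The log2 change was -0.25 with a standard error of 0.0839 and a 95% interval from -0.43 to -0.08, which is a difference of -16.0% with an interval from -25.6% to -5.10% (unadjusted p = 0.00755, adjusted p = 0.487 in edgeR's quasi-likelihood test). This was the smallest p of the members, and with any 1 of the 10 rats removed it ranged from 0.00349 to 0.0284. It was 0.0299 with the ribosomal RNA share as a covariate. Without both sham replicate 1 and TBI replicate 5, the highest and the lowest rat in Scn1a, it was 0.0526. That pair was chosen after seeing the data.

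Markers of parvalbumin interneurons are set beside Scn1a because these cells carry it. Of the 10 listed genes tested, 10 had a negative log2 change and 6 an unadjusted p under 0.05 in edgeR's quasi-likelihood test, with a median log2 change of -0.39 and with 0 past the adjusted threshold. At that unadjusted threshold 3.00% of all rows tested were lower in TBI. The list was chosen with results for Gad1 and Gad2, the enzymes that make GABA, already known. The study had also listed Gad1, Gad2 and Syt2 as downregulated in this model, so the list is not independent of these data. Gad1, Gad2 and Slc32a1 are shared by GABA neurons in general, and Lhx6 and Erbb4 by other interneurons. The list therefore does not single out the parvalbumin type. Its summed level was 242 to 328 CPM in sham and 189 to 266 CPM in TBI rats, and none of the genes was at 0 in any library. Pvalb itself, the calcium-binding protein that names these cells, averaged 25.3 CPM ± 6.76 in sham against 19.1 CPM ± 4.54 in TBI rats (SD, n = 5 each). It had a log2 change of -0.40 (SE 0.218, unadjusted p = 0.0919). The part of these cells in the Scn1a values was not tested.

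Scn2a encodes Nav1.2, the alpha subunit of excitatory neurons that lies in the proximal initial segment and in unmyelinated axons. Scn2a stood at 223, 211, 175, 210 and 176 CPM in sham replicates 1 to 5. It stood at 177, 161, 175, 186 and 172 CPM in TBI replicates 1 to 5. Sham replicates 3 and 5 lay among the TBI rats, and the other 3 sham rats above all of them. Group means were 199 CPM ± 22.0 in sham and 174 CPM ± 8.83 in TBI rats (SD, n = 5 each). The estimated log2 change, TBI over sham, was -0.19 with a standard error of 0.0829 and a 95% interval from -0.37 to -0.02 (unadjusted p = 0.0318, adjusted p = 0.589 in edgeR's quasi-likelihood test). The p stayed under 0.05 in 4 of the 10 fits with a rat removed.

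Scn3a encodes Nav1.3, an alpha subunit most abundant in the embryonic and newborn brain and known to return in injured sensory neurons. Levels of Scn3a in sham replicates 1 to 5 were 20.4, 22.0, 21.1, 22.6 and 22.9 CPM. Those in TBI replicates 1 to 5 were 17.8, 20.7, 20.3, 19.7 and 17.7 CPM. The 4 sham rats other than replicate 1 lay above all TBI rats. Mean levels were 21.8 CPM ± 1.06 in sham and 19.2 CPM ± 1.39 in TBI rats (SD, n = 5 each). The estimated log2 change, TBI over sham, was -0.18 with a standard error of 0.0794 and a 95% interval from -0.35 to -0.01 (unadjusted p = 0.0363, adjusted p = 0.614 in edgeR's quasi-likelihood test). With the ribosomal RNA share as a covariate the log2 change was -0.13 (unadjusted p = 0.240), and without sham replicates 4 and 5, rich in ribosomal RNA, it was -0.13 (unadjusted p = 0.180). Those rats had the highest Scn3a levels.

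Scn8a encodes Nav1.6, the alpha subunit of the distal initial segment and of the nodes of Ranvier in adult neurons. Scn8a stood at 168, 149, 147, 144 and 135 CPM in sham replicates 1 to 5. It stood at 164, 157, 136, 136 and 104 CPM in TBI replicates 1 to 5. TBI replicates 1 and 2 lay above 4 of the sham rats and TBI replicate 5 below all other rats. Sham rats averaged 149 CPM ± 12.3 and TBI rats 139.5 CPM ± 23.5 (SD, n = 5 each). The log2 change was -0.09 with a standard error of 0.104 and a 95% interval from -0.31 to 0.13 (unadjusted p = 0.395, adjusted p = 0.874 in edgeR's quasi-likelihood test). Without TBI replicate 5 the log2 change was -0.0012. The interval includes differences between -19.3% and 9.29%, which spans the -16.0% estimated for Scn1a.

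**Figure D2:**
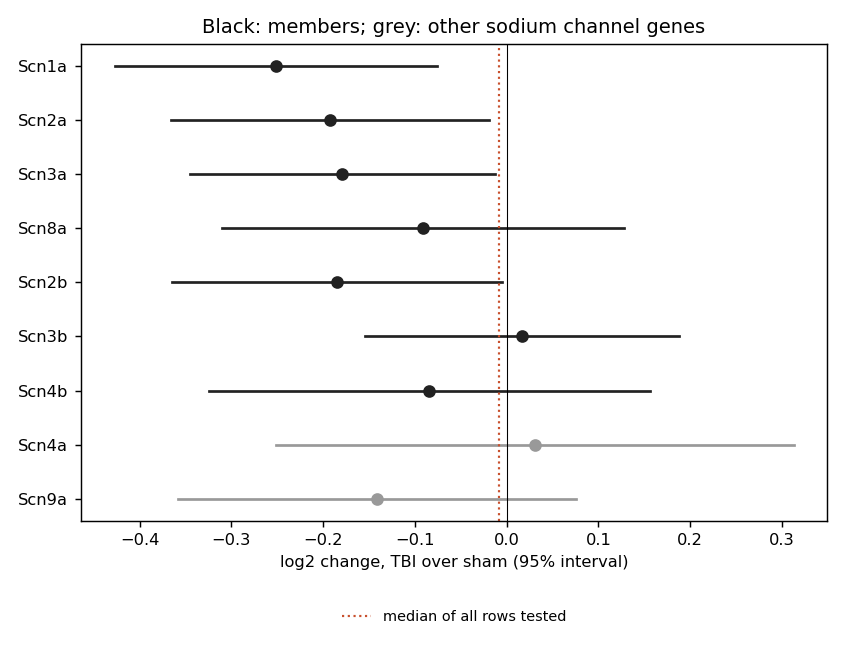
Log2 change of TBI over sham (horizontal axis) with its 95% interval for the 7 members (black) and for Scn4a and Scn9a (grey), with the median of all rows tested as a dotted line at -0.01. The intervals of Scn1a, Scn2a, Scn3a and Scn2b lie below 0 and those of the other genes include it.

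Among the beta subunits, Scn2b encodes beta-2, which is bound to the alpha subunit by a disulfide bridge, raises the number of channels at the surface and is cut by the protease BACE1. Levels of Scn2b in sham replicates 1 to 5 were 53.5, 49.3, 42.5, 47.7 and 45.4 CPM. Those in TBI replicates 1 to 5 were 42.9, 44.6, 45.0, 42.5 and 34.9 CPM. The 4 sham rats other than replicate 3 lay above all TBI rats, and TBI replicate 5 lay well below the others. Sham rats averaged 47.7 CPM ± 4.15 and TBI rats 41.96 CPM ± 4.10 (SD, n = 5 each). The log2 change was -0.19 with a standard error of 0.0857 and a 95% interval from -0.36 to -0.0056 (unadjusted p = 0.0440, adjusted p = 0.622 in edgeR's quasi-likelihood test). Without TBI replicate 5 it was -0.13 (unadjusted p = 0.136), and the p stayed under 0.05 in 5 of the 10 fits with a rat removed.

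Scn4b encodes beta-4, also bound by a disulfide bridge, whose inner tail can block the open pore and give the resurgent current of fast-firing neurons. Scn4b stood at 36.1, 26.5, 23.2, 26.4 and 26.7 CPM in sham replicates 1 to 5. It stood at 23.7, 22.6, 25.4, 31.3 and 28.3 CPM in TBI replicates 1 to 5. Sham replicate 1 and TBI replicate 4 stood highest, and the groups overlapped throughout. Group means were 27.8 CPM ± 4.86 in sham and 26.3 CPM ± 3.55 in TBI rats (SD, n = 5 each). The log2 change was -0.08 with a standard error of 0.114 and a 95% interval from -0.32 to 0.16 (unadjusted p = 0.471, adjusted p = 0.898 in edgeR's quasi-likelihood test), and it was 0.029 without sham replicate 1. Markers of CA3 pyramidal cells (7 of 9 tested) summed to 1620 CPM in sham replicate 1 and 1680 CPM in TBI replicate 4, the highest of all rats, against 1128 to 1554 CPM in the other 8. General neuronal markers were highest in the same rats, at 4727 and 4222 CPM, against 3479 to 4189 CPM in the other 8, so this was not particular to CA3 markers. The part of either group of markers in the Scn4b values was not tested.

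Scn3b encodes beta-3, which binds the alpha subunit without a covalent bond. The sham rats had 472, 459, 380, 394 and 395 CPM of Scn3b. The TBI rats had 460, 414, 414, 423 and 412 CPM. All TBI rats lay within the range of the sham rats. Mean levels were 420.0 CPM ± 42.1 in sham and 425 CPM ± 20.1 in TBI rats (SD, n = 5 each). The log2 change was 0.02 with a standard error of 0.0816 and a 95% interval from -0.15 to 0.19 (unadjusted p = 0.844, adjusted p = 0.982 in edgeR's quasi-likelihood test). It was the only member with a positive change, and that sign did not hold in 7 of the 26 alternatives.

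Scn2b and Scn4b are neighbours on chromosome 8 of the rat, with 0 protein-coding genes between them, as are Scn3a and Scn2a on chromosome 3. Sequences taken as promoters (250 bases before the annotated start of the gene to 50 after it, from RefSeq on assembly GRCr8) were found for 5 of the 7 members. The neighbours Scn2b and Scn4b, and Scn8a as the member richest in CpG, are printed 5′ to 3′ with each CpG in capitals, because the members differed widely in this feature:
Scn2b (GRCr8, chr8:54322133-54322432, plus strand): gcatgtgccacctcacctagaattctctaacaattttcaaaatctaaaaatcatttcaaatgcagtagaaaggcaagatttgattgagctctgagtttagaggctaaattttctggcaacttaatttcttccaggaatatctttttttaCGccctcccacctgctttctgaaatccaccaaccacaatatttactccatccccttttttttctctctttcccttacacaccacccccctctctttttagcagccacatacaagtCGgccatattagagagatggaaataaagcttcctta
Scn4b (GRCr8, chr8:54343623-54343922, plus strand): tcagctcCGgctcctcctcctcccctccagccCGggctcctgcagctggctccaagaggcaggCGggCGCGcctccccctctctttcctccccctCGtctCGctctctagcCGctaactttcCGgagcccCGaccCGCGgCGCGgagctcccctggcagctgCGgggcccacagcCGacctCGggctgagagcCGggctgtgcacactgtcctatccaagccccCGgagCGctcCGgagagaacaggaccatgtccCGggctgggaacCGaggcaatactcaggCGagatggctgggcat
Scn8a (GRCr8, chr7:133860977-133861276, plus strand): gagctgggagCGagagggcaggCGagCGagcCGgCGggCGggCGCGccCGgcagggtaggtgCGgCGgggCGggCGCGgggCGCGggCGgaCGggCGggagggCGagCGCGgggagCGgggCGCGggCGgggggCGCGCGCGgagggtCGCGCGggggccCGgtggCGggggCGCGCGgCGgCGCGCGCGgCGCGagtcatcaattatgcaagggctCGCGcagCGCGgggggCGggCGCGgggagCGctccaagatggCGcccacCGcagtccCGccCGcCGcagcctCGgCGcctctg

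The Scn2b promoter held 2 CpG and was 39.0% G and C. Scn2a held 4 CpG at 39.3% and Scn3a 7 CpG at 43.3%. Scn4b held 24 CpG at 70.0% and Scn8a 60 CpG at 84.7%. In Scn4b the bases after the annotated start open with the start codon atg, and the frame from it meets no stop codon. The annotated start may thus be that of the coding sequence. The values given for Scn4b may then be those of transcribed bases before the start codon and not of its promoter. The median over 27457 promoters of the table was 7 CpG and 52.3%. Among the 5 with a sequence, the 3 with the fewest CpG were those with an unadjusted p under 0.05, and Scn4b and Scn8a were those without. This order leaves out Scn1a, the member with the smallest p, which had no sequence, and the place of Scn4b in it is uncertain. It also rests on p-values that were all above 0.05 without both sham replicate 1 and TBI replicate 5, a pair chosen after seeing the data. The order was not tested. Abundant genes were cut into 3 groups by CpG, with 0 to 19, 19 to 28 and 28 to 64 CpG. By these bounds Scn2b, Scn2a and Scn3a fall in the lowest group, Scn4b in the middle and Scn8a in the highest. The median log2 change was -0.01 in the 1229 genes with the fewest CpG, -0.01 in the 1229 of the middle group and -0.02 in the 1230 with the most. In the same order, 2.93%, 2.03% and 2.28% were lower in TBI at an unadjusted p under 0.05, and 5.94%, 4.48% and 4.15% higher. The GC box GGGCGG, searched on both strands, was found in Scn8a alone of these 5 and in 34.9% of all promoters, and the TATA box TATAAA in 0 of the 5 and in 14.3% of all.

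Ratios of counts within a library do not depend on how libraries are scaled. They are not ratios of transcript numbers, since transcripts differ in length, and they are given with no test. Scn2b had 10.8 to 12.1 counts per 100 counts of Scn3b in sham rats and 8.46 to 10.9 in TBI rats. TBI replicates 2 and 3 reached just above the lowest sham rat. Scn4b had 5.77 to 7.65 counts per 100 of Scn3b in sham and 5.15 to 7.40 in TBI rats. Scn1a had 17.3 to 21.7 counts per 100 counts of Scn2a in sham and 17.7 to 19.5 in TBI rats, the TBI range lying within that of the sham rats. Scn8a had 68.7 to 84.0 counts per 100 of Scn2a in sham and 60.3 to 97.4 in TBI rats. This ratio was the most uneven of them among the injured rats, highest in TBI replicates 1 and 2 and lowest in TBI replicate 5.

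**Figure D3:**
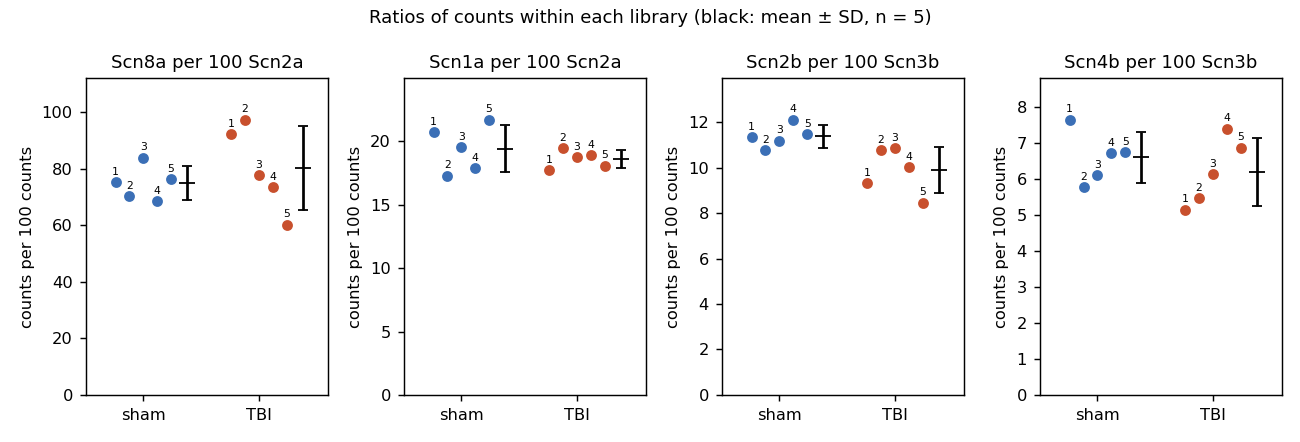
Counts of one subunit per 100 counts of another in the same library (vertical axes, from 0) in sham (blue) and TBI (orange) rats, numbered by replicate, with the mean and SD in black. Scn8a per 100 Scn2a spans 60.3 to 97.4 in TBI rats, and Scn2b per 100 Scn3b is mostly lower in TBI rats.

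The members did not vary as one block among the rats. In sham replicate 1, Scn4b and Scn1a were above their mean over all rats by 0.43 and 0.39 on the log2 scale, while Scn3a was at its mean. In TBI replicate 5, Scn8a and Scn2b were at -0.46 and -0.35 against their means, while Scn4b was at 0.08. In TBI replicate 4, Scn4b was at 0.23 and the other 6 members were from -0.07 to 0.01. The coefficient of variation among sham rats was 4.87% for Scn3a, the lowest, and 17.5% for Scn4b, the highest. Among TBI rats it was 4.73% for Scn3b and 16.8% for Scn8a.

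**Figure D4:**
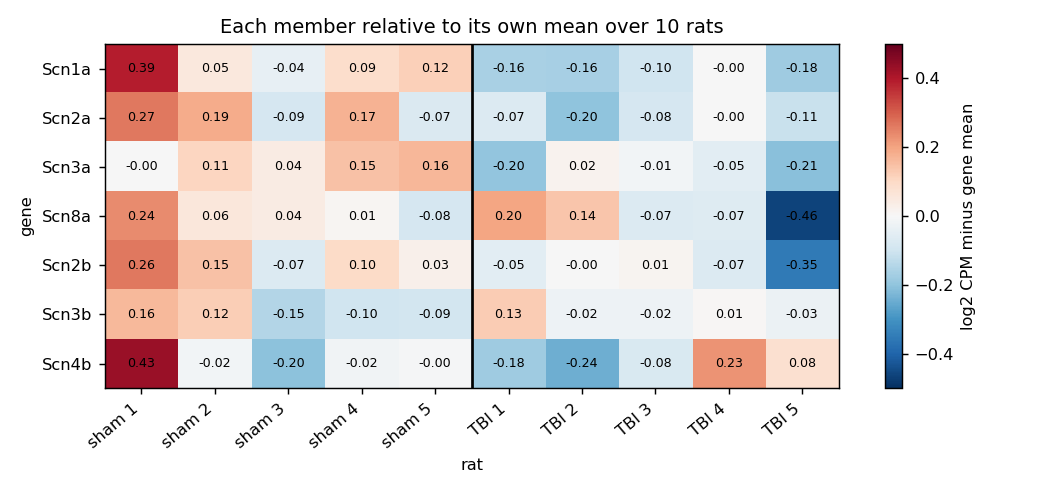
Log2 CPM of each member (rows) in each rat (columns) minus the mean of that gene over the 10 rats, red above and blue below, with sham rats left of the black line. Sham replicate 1 is high in Scn1a and Scn4b, and TBI replicate 5 is low in Scn8a and Scn2b.

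Among other sodium channel genes, Scn9a, the alpha subunit known from pain fibres, had a log2 change of -0.14 (SE 0.103, unadjusted p = 0.189 in edgeR's quasi-likelihood test), and Scn4a, that of skeletal muscle, one of 0.03 (SE 0.134, unadjusted p = 0.821). Scn10a and Scn11a, of sensory neurons, had at most 7 and 4 counts in any library and did not pass the filter. Scn7a and Nalcn had no row matched to their symbol.

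Of 30 listed partners and regulators of the channels, 26 were tested. None had an unadjusted p under 0.05 in edgeR's quasi-likelihood test, 17 had a negative and 9 a positive log2 change, and the median was -0.05. The smallest p belonged to Fgf13, an intracellular factor that binds the channel's tail, with a log2 change of -0.18 (SE 0.0971, unadjusted p = 0.0735). Csnk2a1, a subunit of the kinase CK2 that favours binding to ankyrin-G, had a log2 change of -0.11 (SE 0.0699). Cntn2, an adhesion protein of axons, had one of 0.13 (SE 0.0844). Of the scaffold itself, Ank3 averaged 117 CPM ± 12.6 in sham against 120 CPM ± 9.78 in TBI rats (SD, n = 5 each), with a 95% interval of its log2 change from -0.15 to 0.21. Sptbn4, its spectrin, had a log2 change of -0.04 (SE 0.0844). Rest, the repressor that silences Scn2a outside neurons, had 35 to 92 counts per library and a log2 change of 0.02 (SE 0.176). Of 7 genes for proteases that cut beta subunits, Bace1 and Adam10 and the parts of gamma-secretase, none had an unadjusted p under 0.05, and Bace1 had a log2 change of 0.0069 (SE 0.0785).

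General neuronal markers had a median log2 change of -0.07, with 10 of 11 negative and 0 with an unadjusted p under 0.05 in edgeR's quasi-likelihood test. Over all rows tested, 3.00% were lower and 4.89% higher in TBI at that threshold, beside which the counts below are to be read. Astrocyte markers had a median log2 change of 0.18, with 3 of 8 higher at that threshold, and microglia markers one of 0.27, with 4 of 9 higher. Their summed levels were 2999 to 3969 CPM in sham and 3285 to 4839 CPM in TBI rats for astrocytes, and 220 to 331 and 260 to 357 CPM for microglia, with no marker at 0 in any library. Oligodendrocyte markers had a median of 0.02, with 1 of 9 higher. Endothelial markers had a median of 0.01, with 0 of 6 past it, choroid plexus markers one of 0.22, with 1 of 6 higher, and markers of the neighbouring thalamus one of 0.36, with 2 of 7 higher. Markers of interneurons other than the parvalbumin type had a median of -0.16, with 2 of 8 lower, granule cell markers one of -0.25 and CA3 markers one of 0.0028, with 0 of 4 and 0 of 7 past it. CA1 markers, of a region beside the labelled CA3 and dentate gyrus, had a median of 1.40, with 2 of 5 higher, and summed to 67.9 to 146 CPM in sham and 48.0 to 502 CPM in TBI rats. The part of these cell types in the lower sodium channel values was not tested.

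For each member, the named genes whose log2 CPM followed it most closely over the 10 rats were taken by Pearson's r among genes of at least 5 CPM. Picked as the highest of many, these r are a description. Scn1a was followed by B4galt6 (r = 0.948), Map1b (r = 0.931), a microtubule protein of axons, and Mapk10 (r = 0.920), a neuronal JNK kinase. Scn2a was followed by Klhdc2 (r = 0.986), Rabgap1 (r = 0.960) and Pcmt1 (r = 0.959). Scn3a was followed by Npy1r (r = 0.938), a receptor of neuropeptide Y, Spats2l (r = 0.936) and C8h11orf87 (r = 0.923). Scn8a was followed by Kcnh1 (r = 0.946), a potassium channel, Mlec (r = 0.939) and Nfasc (r = 0.933), the adhesion protein neurofascin of the initial segment and nodes. Scn2b was followed by Igf1r (r = 0.952), Mcm3ap (r = 0.945) and Vps39 (r = 0.935). Scn3b was followed by Pigm (r = 0.956), Sanbr (r = 0.920) and Nras (r = 0.912). Scn4b was followed by Tspyl2 (r = 0.957), Lpl (r = 0.934) and Dkk3 (r = 0.931), which is on the list of CA3 markers.

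**Figure D5:**
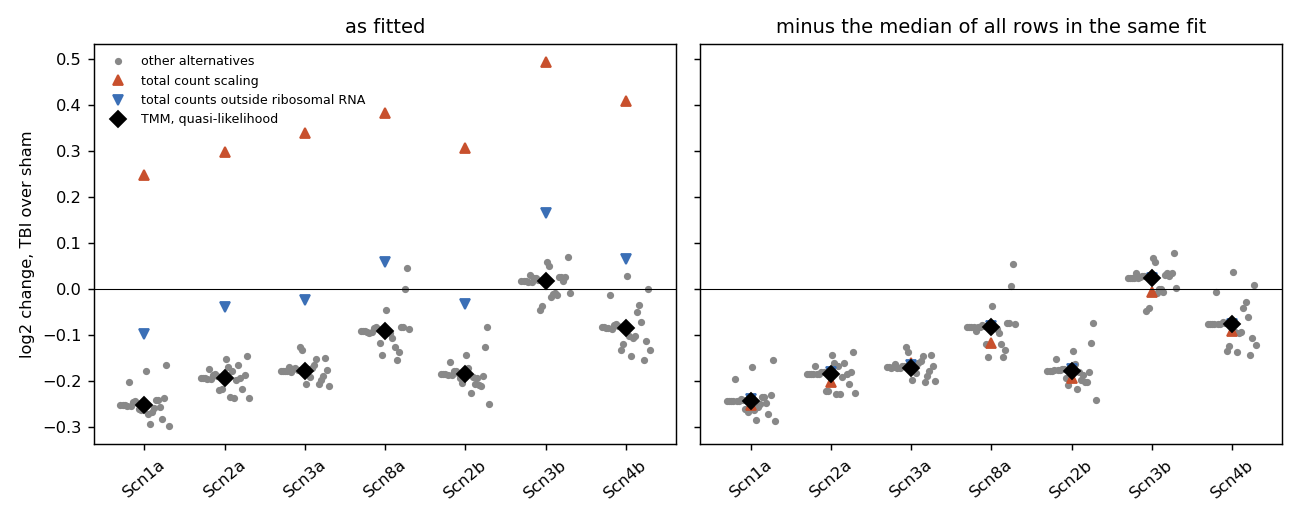
Log2 change of TBI over sham for each member (vertical axis) under the test used (black diamonds), under scaling by total counts with (orange) and without (blue) ribosomal RNA, and under the other alternatives (grey), as fitted (left) and minus the median change of all rows in the same fit (right). Total count scaling moves all 7 members up on the left, while on the right each member but Scn3b lies below 0 under both total count scalings, and Scn3b lies at -0.0062 with and 0.024 without ribosomal RNA.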

How the data were processed

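Messenger RNA was measured in 5 sham and 5 TBI rats by the labels and the table. The study's methods name fewer control rats for this profiling, and which of the sham libraries they mean was not settled, so all 5 were used. The authors selected poly-A RNA, read it as single reads of 36 bases, aligned reads with BWA to rn4 and deposited raw counts per RefSeq RNA record, 1 column per rat, with no normalization. Their methods name Ensembl transcripts, and how this goes with RefSeq rows was not settled. Use of strand in the counting is not given in the sources used here. Reads of 36 bases may not separate Scn1a, Scn2a and Scn3a wherever their sequences are alike, so their values are uncertain to that extent. Unmapped reads (median 22.2%) and 1 entry with no record name were kept out.

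Rows were named from a RefSeq table on GRCr8, used for names (54.2% of records matched), gene order and promoters. As in the study, a filter kept rows whose counts summed to 44 or more, the 30th percentile. Groups were compared over all rows with edgeR 4.0.16 (quasi-likelihood F test, robust, TMM) in R 4.3.3 with Benjamini-Hochberg adjustment. Standard errors are the log2 change divided by the root of F. Log2 CPM used a prior count of 2. One row per symbol, the most abundant, was used. Replicate numbers only follow sample order. Alternatives used limma 3.58.1, DESeq2 1.42.0, other scalings, filters and samples. The fit was tested on simulated data. Members, gene lists and tests were chosen with earlier results of these data known. Of each other list, the 3 genes with the smallest p and those set beside a member were to be named. The 3 with the smallest p were given in full for the channel partners only, so genes shown from other lists need not be the strongest. Others named here (Ank3, Sptbn4, Rest, Bace1, Pvalb) were chosen after their values were seen. Some items of the gene lists are not reported here. Transcript lengths were not used here, so levels are not compared between genes. Figures were drawn with matplotlib 3.10.9.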

Additional observations from a re-analysis of the deposited data

Results flagged for a closer look

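Of 60 groups of 5 rats looked at (members, ratios and summed marker levels), 7 held 1 rat whose gap to its nearest neighbour, as a share of the range, exceeded the 95% limit of Dixon's test. By chance about 1 in 20 groups, or 3 here, would do so. Among the members, sham replicate 1 had 36.1 CPM of Scn4b against 23.2 to 26.7 in the other sham rats. TBI replicate 5 had 34.9 CPM of Scn2b against 42.5 to 45.0 in the other TBI rats. TBI replicate 1 had 460.0 CPM of Scn3b against 412 to 423. Sham replicate 1 was also set apart in summed marker levels, with 68.6 CPM of granule cell markers (others 185 to 212), 4727 CPM of neuronal markers (others 3835 to 4011) and 374 CPM of markers of interneurons other than the parvalbumin type (others 248 to 284). Sham replicate 4 had 37.1 CPM of choroid plexus markers (others 7.41 to 15.5). These flags share rats and are not independent. Why these rats stood apart was not tested.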

How the results depend on the processing

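The adjusted p missed 0.05 for each member under each of the 26 alternatives run, and the smallest was 0.168, for Scn1a. The number of members with an unadjusted p under 0.05 and lower in TBI was 4. It was 2 with the likelihood ratio test, the exact test, no filter and without sham replicates 4 and 5, 1 with the ribosomal RNA share as a covariate, 0 with total count scaling with or without ribosomal RNA, and from 1 to 4 with 1 rat removed at a time. It was 0 without sham replicate 1 and TBI replicate 5, the rats lowest in granule cell markers, an alternative chosen after seeing the data, as was that without sham replicate 3 and TBI replicate 3, where it was 4. With the former pair left out, Scn1a had a log2 change of -0.16 (unadjusted p = 0.0526 in edgeR's quasi-likelihood test), Scn2a -0.15, Scn3a -0.18, Scn2b -0.08 and Scn8a 0.045. The median log2 change of the members, -0.18, was 0.34 with total count scaling and -0.025 with total counts outside ribosomal RNA, where the median of all rows was 0.50 and 0.14. Total count scaling gave log2 changes of 0.25 for Scn1a, 0.30 for Scn2a, 0.34 for Scn3a, 0.38 for Scn8a, 0.30 for Scn2b and 0.41 for Scn4b, and total counts outside ribosomal RNA gave 0.059 for Scn8a and 0.066 for Scn4b. Relative to the median of all rows of the same fit, Scn1a, Scn2a, Scn3a and Scn2b stayed below it in 26 of 26 alternatives. As fitted, and not relative to that median, the log2 change of Scn3b was -0.046 with the covariate and -0.036 without sham replicates 4 and 5. It was -0.0085 without sham replicate 3 and TBI replicate 3. With 1 rat removed at a time, the fitted log2 change was from -0.018 to 0.058 for Scn3b and from -0.15 to 0.029 for Scn4b. Of the other sodium channel genes and partners, 0 had an unadjusted p under 0.05. The count was 1 with total counts outside ribosomal RNA, 1 without sham replicates 4 and 5, 1 without sham replicate 3 and TBI replicate 3, and from 0 to 2 with 1 rat removed at a time. Apart from scaling, which shifts all rows, causes were not tested. About 2 standard errors, 0.17 on the log2 scale at the members' median error, is what an unadjusted p under 0.05 needed with 5 rats per group, and the threshold adjusted over all rows needed a larger change.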
